A study of Homo sapiens with 6 samples.

Results

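The aminoacyl-tRNA synthetases attach each amino acid to its transfer RNA. The gene tables were read for 36 named genes of this family, out of 58780 annotated genes, and all 36 passed the filter on low counts. They comprise 20 genes for cytosolic enzymes and 16 whose symbol ends in ARS2, which code for mitochondrial enzymes. The symbols are those of GENCODE release 29, so GARS, HARS and similar names stand for genes that carry a final 1 in current nomenclature. The RNA came from HCT116, an established human colorectal carcinoma line. In 3 libraries the cells had received auxin for 16 h, and in 3 control libraries they had received the solvent DMSO, all labelled as biological replicates. Auxin is a plant hormone used to trigger the degradation of a protein fused to a degron, but the labels name neither a tagged protein nor a degron genotype, and they do not say whether the control cells carry the same modification. The comparison therefore asks how the synthetase RNAs differed between auxin-treated and DMSO-treated HCT116 cells.

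Charging is a reaction in which the enzyme activates the amino acid with ATP and then joins it to the transfer RNA that carries the matching anticodon. Enzymes of class I and class II have unrelated catalytic folds, and several also hydrolyse wrongly charged products. A group of the cytosolic enzymes is held together with the scaffold proteins AIMP1, AIMP2 and EEF1E1 in the multisynthetase complex. The mitochondrial enzymes are made in the cytosol, imported, and serve the translation of the few proteins encoded by mitochondrial DNA. Many cytosolic synthetase genes are known targets of ATF4, the transcription factor of the amino acid and unfolded protein stress responses.

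The deposited expected counts summed to 546128199, 284300256 and 270781969 in DMSO replicates 1 to 3 and to 625895062, 256305561 and 234037969 in auxin replicates 1 to 3. Replicate 1 of both groups was therefore more deeply sequenced than the others, and its values often lay together on one side. Of 7 epithelial markers, 5 reached 1 TPM in every library, with a summed level of 1724 to 2374 TPM with DMSO and 2207 to 2646 TPM after auxin, while CDX1 was at 0 and VIL1 was under 0.1 TPM. The leukocyte genes PTPRC and CD3E were at 0 in every library. Counts are relative to the whole library, so a change in cell number or in the total RNA per cell cannot be seen here.

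Of the 36 genes a minority fell steeply and a larger number rose a little. After auxin 16 of the 36 genes were higher, 9 were lower and 11 were not called, by edgeR's quasi-likelihood test over 19725 genes with a Benjamini-Hochberg adjusted p under 0.05. Across all genes tested the same rule called 25.4% higher and 26.9% lower. The part of the family called lower was near that of all genes. The median log2 fold change of the 36 genes was 0.17, against 0.02 for all genes. The sizes were unequal. A fall of at least 1.5-fold was seen in 8 synthetase genes, a part near the 19.7% of all genes. EARS2 alone rose by that much, where 13.5% of all genes did. Read counts scaled to library size (CPM) did not overlap between the groups in 26 synthetase genes, 16 higher and 10 lower, and did not overlap in 60.3% of all genes.

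Among the 20 cytosolic genes 10 rose, 5 fell and 5 were not called, with a median log2 fold change of 0.26. Among the 16 mitochondrial genes 6 rose, 4 fell and 6 were not called, with a median of 0.12. By catalytic class, 12 of 19 class I genes rose and 4 fell, while 4 of 17 class II genes rose and 5 fell. EPRS, whose protein charges both glutamate and proline, was counted once, in class I, and was not called. With the replicate number as a block, 12 class I genes were higher and 4 lower, and 9 class II genes were higher and 6 lower, and the difference between the classes was not tested. The summed level of the cytosolic genes was 1923, 1418 and 1550 TPM in the DMSO libraries and 1743, 1561 and 1698 TPM after auxin. The mitochondrial genes summed to 258.2, 183.3 and 197.0 TPM with DMSO and to 240.2, 193.1 and 200.9 TPM after auxin. Both TPM sums overlapped between the groups. In CPM, the scale of the calls, the cytosolic genes summed to 3196.5, 3610.1 and 3843.1 with DMSO and to 3595.0, 4279.9 and 4369.9 with auxin, higher after auxin in all 3 same-numbered pairs though the groups overlapped. The mitochondrial genes summed to 467.4, 502.0 and 522.3 CPM with DMSO and to 546.5, 592.1 and 582.0 CPM with auxin, without overlap, so the 2 scales differ on the class totals.

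**Figure D1:**
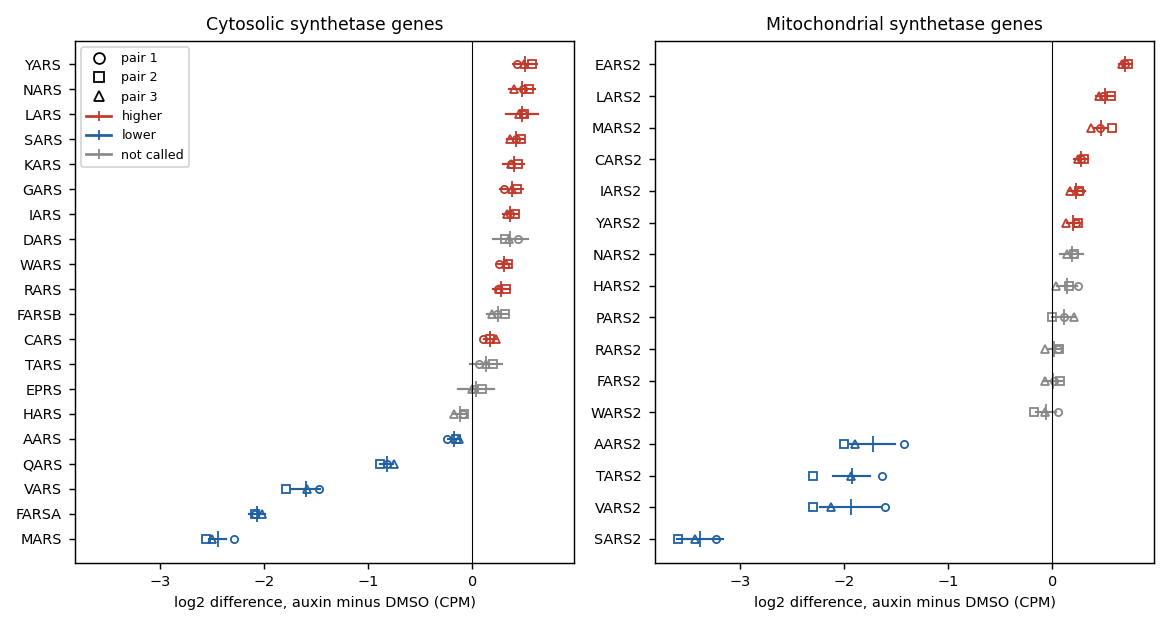
Log2 difference in CPM between auxin and DMSO for each synthetase gene, cytosolic at left and mitochondrial at right. Open symbols are the 3 pairs of same-numbered libraries, the vertical tick with its bar is the edgeR estimate ± SE, and colour gives the call. The genes called lower reach a log2 difference of -3.38 in SARS2, while no gene called higher passes 0.70.

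MARS, the cytosolic methionyl-tRNA synthetase that serves both initiator and elongator tRNA, fell the most among the cytosolic genes. It lies at chr12:57475445-57517569 on the plus strand (GRCh38). Its CPM was 78.7, 77.5 and 81.5 in the DMSO libraries and 16.0, 13.2 and 14.4 after auxin. All auxin libraries lay far below all DMSO libraries, a 5.45-fold lower level (log2 fold change -2.45 ± 0.08 SE, adjusted p by edgeR = 2.3e-06). MARS shares 982 bases with DDIT3 on the opposite strand, where DDIT3 was at 3.75 CPM with DMSO and 5.32 CPM after auxin, and whether the authors' counting used the strand is not given in the sources used here.

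FARSA codes for the alpha subunit of phenylalanyl-tRNA synthetase, which is active only when bound to the beta subunit from FARSB. FARSA (chr19:12922479-12934037, minus strand) was at 57.7, 58.9 and 63.4 CPM with DMSO and at 13.6, 13.8 and 15.6 CPM after auxin. The difference was 4.19-fold, a log2 difference of -2.07 ± 0.08 (SE; adjusted p by edgeR = 3.2e-06). FARSB was at 155.4 ± 15.4 CPM with DMSO and 184.0 ± 17.6 CPM with auxin (SD, n = 3 each), with overlapping groups and no call (adjusted p by edgeR = 0.079; 2.3e-04 with the replicate number as a block). The ratio of FARSA to FARSB in TPM, which corrects for length, was 0.93, 0.84 and 0.81 in the DMSO libraries and 0.18, 0.15 and 0.17 after auxin. The 2 subunit RNAs were thus present at similar levels in DMSO, and after auxin the alpha RNA was the scarcer by a wide margin.

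VARS, the cytosolic valyl enzyme (chr6:31777518-31795953, minus strand), went from 78.6, 67.4 and 67.5 CPM to 28.3, 19.5 and 22.5 CPM. It was 3.04-fold lower, with a log2 difference of -1.60 ± 0.14 (SE; adjusted p by edgeR = 9.6e-05). QARS, the glutaminyl enzyme (chr3:49095932-49105135, minus strand), was at 54.1, 59.4 and 54.7 CPM with DMSO and at 30.5, 32.1 and 32.5 CPM after auxin. Its log2 fold change was -0.82 ± 0.06 (SE; adjusted p by edgeR = 4.4e-05), the groups being separate but closer than for VARS. AARS, the alanyl enzyme, was called lower by a small amount, from 121.0 ± 2.5 to 107.1 ± 4.8 CPM (SD, n = 3 each; adjusted p by edgeR = 0.035). AARS kept its call in 6 of 15 alternative settings, and with limma on log2(TPM + 1) neither AARS nor QARS was called.

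The 10 cytosolic genes that rose did so by log2 fold changes of 0.17 (CARS) to 0.50 (YARS). YARS, the tyrosyl enzyme (chr1:32775237-32818153, minus strand), was at 140.2, 156.1 and 171.7 CPM with DMSO and 189.1, 231.5 and 242.5 CPM after auxin. Its log2 fold change of 0.50 ± 0.11 (SE) had an edgeR adjusted p of 0.0086. NARS, the asparaginyl enzyme (chr18:57600656-57622213, minus strand), was at 173.9, 212.0 and 227.5 CPM with DMSO and 243.6, 309.3 and 300.5 CPM after auxin (log2 fold change 0.48 ± 0.13 SE, adjusted p by edgeR = 0.017). For both genes the lowest auxin library still exceeded the highest DMSO library. The others that rose were LARS, SARS, KARS, GARS, IARS, WARS, RARS and CARS, with the groups apart in each. These small rises were not called by every method. With limma on log2(TPM + 1), which changes both the scale and the test, 0 of the 36 genes were called higher, while edgeR called 9 cytosolic genes higher with library size only and 12 with upper-quartile factors. The number of cytosolic genes called higher was 5 without auxin replicate 2, 5 without auxin replicate 3, and 6 without DMSO replicate 1 or 2.

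The multisynthetase complex holds 8 of the cytosolic synthetases, of which LARS, IARS, KARS and RARS rose, MARS and QARS fell, and DARS and EPRS were not called. Of its scaffold genes, AIMP2 rose by 1.05 ± 0.07 and AIMP1 by 0.54 ± 0.06 on the log2 scale (SE; adjusted p by edgeR = 2.2e-05 and 2.7e-04). EEF1E1, the last of the 3 scaffold genes, had a log2 fold change of 0.26 and was not called (adjusted p by edgeR = 0.25; 1.0e-04 with the replicate block). In TPM, MARS stood at 1.53, 1.26 and 1.37 times AIMP1 in the DMSO libraries and at 0.38, 0.22 and 0.23 times AIMP1 after auxin. QARS stood at 1.77, 1.32 and 1.13 times AIMP1 with DMSO and 0.75, 0.51 and 0.47 times after auxin. Neither ratio overlapped between the groups.

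**Figure D2:**
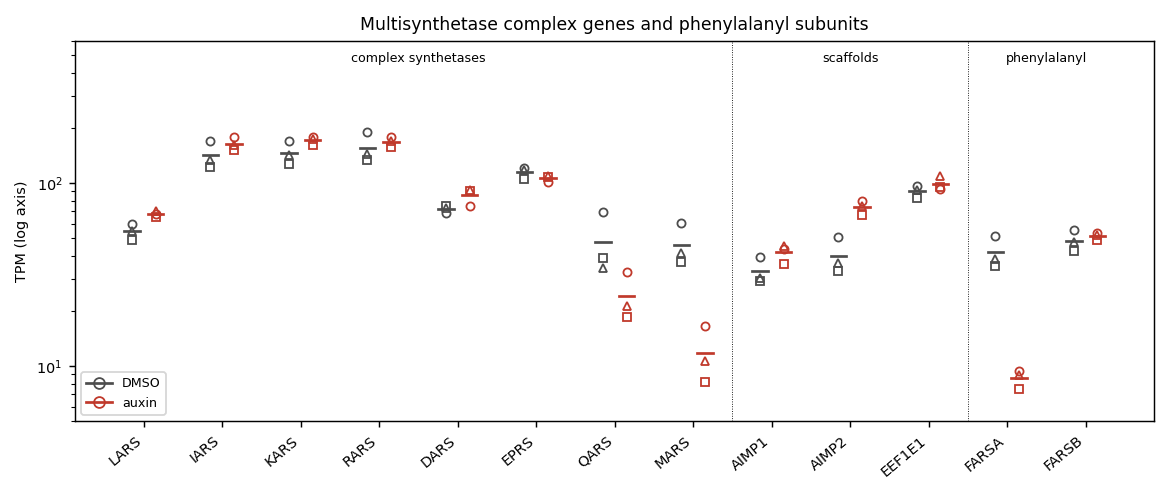
TPM on a log axis of the 8 synthetase genes of the multisynthetase complex, its 3 scaffold genes and the 2 phenylalanyl subunit genes. Grey symbols are DMSO libraries and red symbols auxin libraries (circle, square and triangle for replicates 1 to 3), with a bar at each mean. MARS fell from a mean of 46.1 to 11.8 TPM and FARSA from 41.7 to 8.62 TPM while FARSB stood at 48.3 and 51.2 TPM.

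Some cytosolic genes supply mitochondria as well, since KARS and GARS each code for a cytosolic and a mitochondrial form. KARS, the lysyl enzyme (chr16:75627474-75648643, minus strand), was at 246.2, 273.7 and 293.1 CPM with DMSO and 317.5, 371.4 and 380.1 CPM after auxin. GARS, the glycyl enzyme (chr7:30594681-30634033, plus strand), was at 194.6, 220.0 and 235.4 CPM with DMSO and 240.6, 296.7 and 306.6 CPM after auxin. The log2 fold changes were 0.40 ± 0.10 and 0.38 ± 0.11 (SE; adjusted p by edgeR = 0.012 and 0.027). Of the 2 main coding transcripts of KARS, KARS-201 made up 84.8% ± 0.7 of the gene's TPM with DMSO and 82.8% ± 0.5 after auxin, and KARS-202 made up 10.8% ± 0.9 and 12.6% ± 0.6 (SD, n = 3 each), small moves without overlap of the groups. EPRS, whose protein charges both glutamate and proline, was at 345.5, 455.2 and 489.5 CPM with DMSO and 348.6, 484.9 and 489.2 CPM after auxin. Its log2 fold change of 0.04 ± 0.17 (SE; adjusted p by edgeR = 0.88) was much smaller than the distance between replicate 1 and the other libraries of the same group.

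The 4 mitochondrial genes that fell were SARS2, VARS2, TARS2 and AARS2, all at low levels already in DMSO. SARS2, which charges mitochondrial serine tRNAs (chr19:38915266-38930896, minus strand), fell most of all 36. It was at 10.1, 7.95 and 7.95 CPM with DMSO and 1.08, 0.66 and 0.74 CPM after auxin. This was a 10.4-fold lower level, with a log2 difference of -3.38 ± 0.22 (SE; adjusted p by edgeR = 2.5e-05). The lowest auxin library still held 157 reads of SARS2, so the fall was not set by a count near 0. SARS2 shares 349 bases with MRPS12 on the opposite strand, and MRPS12 was at 13.7 CPM with DMSO and 17.3 CPM after auxin.

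VARS2, the valyl enzyme of mitochondria (chr6:30908242-30926459, plus strand), was at 7.995, 6.18 and 6.16 CPM with DMSO and 2.61, 1.25 and 1.41 CPM after auxin. TARS2, the threonyl enzyme (chr1:150487364-150507609, plus strand), was at 5.08, 5.28 and 4.71 CPM with DMSO and 1.64, 1.07 and 1.23 CPM after auxin. AARS2, the alanyl enzyme (chr6:44299654-44313326, minus strand), was at 7.43, 6.50 and 6.44 CPM with DMSO and 2.77, 1.62 and 1.73 CPM after auxin. No auxin library reached the lowest DMSO library in any of the 3 genes, and replicate 1 was the highest auxin library in each. The log2 fold changes were -1.94 ± 0.29, -1.93 ± 0.17 and -1.73 ± 0.22 (SE; adjusted p by edgeR = 0.0012, 1.0e-04 and 5.0e-04). VARS2 overlaps GTF2H4 over 5865 bases on the same strand, and GTF2H4 was also lower (log2 fold change -1.32), so reads of the shared stretch could have been assigned to either gene.

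EARS2, the mitochondrial glutamyl enzyme (chr16:23522014-23557731, minus strand), was the synthetase gene that rose most. It was at 33.1, 34.6 and 36.6 CPM with DMSO and at 53.8, 57.3 and 58.3 CPM after auxin. The replicates lay close together, and the 1.62-fold difference (log2 fold change 0.70 ± 0.06 SE, adjusted p by edgeR = 9.8e-05) was large against their spread. LARS2, the leucyl enzyme of mitochondria (chr3:45388506-45549421, plus strand), went from 37.3, 39.97 and 43.9 CPM to 52.3, 59.1 and 60.0 CPM (log2 fold change 0.50 ± 0.08 SE, adjusted p by edgeR = 0.0020). MARS2, the single-exon gene of the mitochondrial methionyl enzyme, rose by 0.47 on the log2 scale, and CARS2, IARS2 and YARS2 rose by 0.27, 0.23 and 0.20. YARS2 shares 18161 bases with DNM1L on the opposite strand. DNM1L was the more abundant, at 162.5 CPM with DMSO and 179.4 CPM after auxin, against 28.1 and 32.2 CPM for YARS2. The number of mitochondrial genes called higher was 3 without auxin replicate 2, without auxin replicate 3 or without DMSO replicate 2.

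The 11 genes not called were DARS, EPRS, FARSB, HARS and TARS of the cytosolic set and FARS2, HARS2, NARS2, PARS2, RARS2 and WARS2 of the mitochondrial set. DARS, the aspartyl enzyme, had a log2 difference of 0.36 ± 0.17 (SE; adjusted p by edgeR = 0.11), and with the replicate number as a block its adjusted p was 1.8e-05. The same block called TARS (adjusted p = 0.010), NARS2 (0.0021), HARS (0.0094) and HARS2 (0.018), and it left EPRS, FARS2, PARS2, RARS2 and WARS2 without a call. The log2 fold changes of FARS2, RARS2 and EPRS were within 0.04 of 0, and their sign changed with the scaling. PARS2, the prolyl enzyme of mitochondria, was at 7.73 ± 0.74 CPM with DMSO and 8.32 ± 0.86 CPM with auxin (SD, n = 3 each).

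For 13 amino acids the cytosolic and the mitochondrial enzyme come from separate genes with matching names. Both genes rose for cysteine, isoleucine, leucine and tyrosine, and both fell for alanine and valine. The partners were called in opposite directions for 2 amino acids: SARS rose by 0.41 while SARS2 fell by 3.38 on the log2 scale, and MARS fell by 2.45 while MARS2 rose by 0.47. In TPM, SARS stood at 7.09 times SARS2 with DMSO and 62.3 times after auxin, while MARS stood at 6.97 times MARS2 with DMSO and 1.45 times after auxin. For asparagine, arginine and tryptophan only the cytosolic gene was called, higher, and for threonine only the mitochondrial gene, lower. Neither histidyl gene was called.

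HARS and HARS2 are neighbours on chromosome 5 and are transcribed in opposite directions from the same stretch, with annotations that overlap by 437 bases. HARS (chr5:140673904-140691862, minus strand) was at 90.1, 88.2 and 98.2 CPM with DMSO and 84.8, 83.4 and 87.0 CPM after auxin. HARS2 (chr5:140691426-140699318, plus strand) was at 26.8, 32.8 and 33.4 CPM with DMSO and 31.8, 36.6 and 34.1 CPM after auxin. All HARS values after auxin lay just below the DMSO values, and the HARS2 groups overlapped (log2 fold changes -0.12 ± 0.06 and 0.14 ± 0.10 SE, adjusted p by edgeR = 0.15 and 0.28). The 84 bases between their RefSeq start sites, chr5:140691371-140691454 (GRCh38.p14), are shown on the HARS2 strand because they face both genes, with matches to CCGGAAGT, the core bound by ETS factors, in capitals on either strand.
HARS-HARS2: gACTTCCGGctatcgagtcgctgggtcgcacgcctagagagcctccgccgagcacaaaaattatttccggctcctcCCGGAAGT
The motif stands at both ends of the stretch, next to each start site. It was found in 4.95% of 27305 genes with RefSeq promoter windows of 300 bases, and in 8 of the 30 synthetase genes with a window, HARS and HARS2 being 2 of the 8 and sharing these bases.

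The transcript tables show which RNAs of each gene carried these differences. They list 471 transcripts of the 36 genes, of which 287 were tested among 83072. Of these 25 were called higher and 24 lower, where 8.43% and 11.2% of all transcripts tested were. The part called higher was near that of all transcripts. The number called higher was 49 with the replicate block, 50 with DESeq2 and 43 with upper-quartile factors. It was 7 without auxin replicate 2, 11 without auxin replicate 3 or DMSO replicate 2, 16 without DMSO replicate 1 and 13 without DMSO replicate 3. A transcript's share below is its part of the gene's summed TPM, a measure per length, so that short transcripts with few reads count as much as long ones. Of 113 tested transcripts annotated as protein-coding 15 were called higher and 18 lower. Transcripts annotated as retained introns, which keep an intron in place of splicing it out, were called higher in 8 cases and lower in 3, of 93 tested. Of the 287 tested synthetase transcripts, 12 had a share of at least 10%, a call and a move of at least 10 points. This part was close to that of all transcripts tested, 4.14%. The 8 with the largest moves are described here.

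In 7 of the genes that fell, FARSA among them, the share of the main coding transcript dropped as well. AARS2-201 made up 89.7% ± 2.3 of AARS2 with DMSO and 54.0% ± 6.6 after auxin (SD, n = 3 each). TARS2-204 went from 46.4% ± 5.9 to 14.1% ± 1.2, and SARS2-201 from 48.9% ± 3.7 to 21.0% ± 5.8 (SD, n = 3 each). All 3 messages fell, with log2 fold changes of -1.87, -3.09 and -4.04 (adjusted p by edgeR = 0.0042, 5.3e-04 and 1.8e-04). VARS-215 fell from 59.6% to 32.6% of VARS, VARS2-203 from 32.98% to 6.93% of VARS2 and MARS-201 from 38.8% to 14.7% of MARS. VARS2-203 held few reads after auxin, and its posterior SD as deposited by the authors reached 49.8% of the count there.

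Retained-intron transcripts took a larger share in most of the genes that fell. In VARS2 their share was 15.3%, 10.46% and 9.63% in the DMSO libraries and 63.6%, 52.7% and 60.9% after auxin. In SARS2 it was 41.7%, 40.1% and 43.3% with DMSO and 76.3%, 74.6% and 76.9% after auxin. TARS2 went from a mean of 16.1% to 38.4%, VARS from 15.7% to 37.4% and MARS from 14.0% to 26.8%, each with the groups apart. FARSA went from 1.14% to 9.87%, just under a move of 10 points. A rise of at least 10 points without overlap was seen in 5 of the 24 synthetase genes that have such transcripts, all among the genes called lower, and in 11.3% of 6818 genes examined in the same way. Among the genes of that set called lower it was seen in 25.1%.

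In levels, the coding RNA of these genes fell further than the retained-intron RNA. Coding transcripts of VARS2 summed to 3.51, 2.03 and 2.19 TPM with DMSO and 0.49, 0.13 and 0.21 TPM after auxin, while its retained-intron transcripts summed to 0.68, 0.25 and 0.26 TPM with DMSO and 1.10, 0.29 and 0.42 TPM after auxin. The coding sum therefore separated the groups and the retained-intron sum did not. In SARS2 both fell, coding RNA to 0.0509 and retained-intron RNA to 0.239 of the DMSO mean in TPM. In MARS the corresponding ratios were 0.170 and 0.526, and in TARS2 0.208 and 0.855. QARS stood apart: its retained-intron share was 64.2%, 44.9% and 40.4% with DMSO and 64.2%, 40.6% and 46.4% after auxin, and both kinds of RNA fell to about the same ratio (0.540 for coding and 0.507 for retained-intron transcripts). Its share was higher in replicate 1 of both groups than in any other library.

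**Figure D3:**
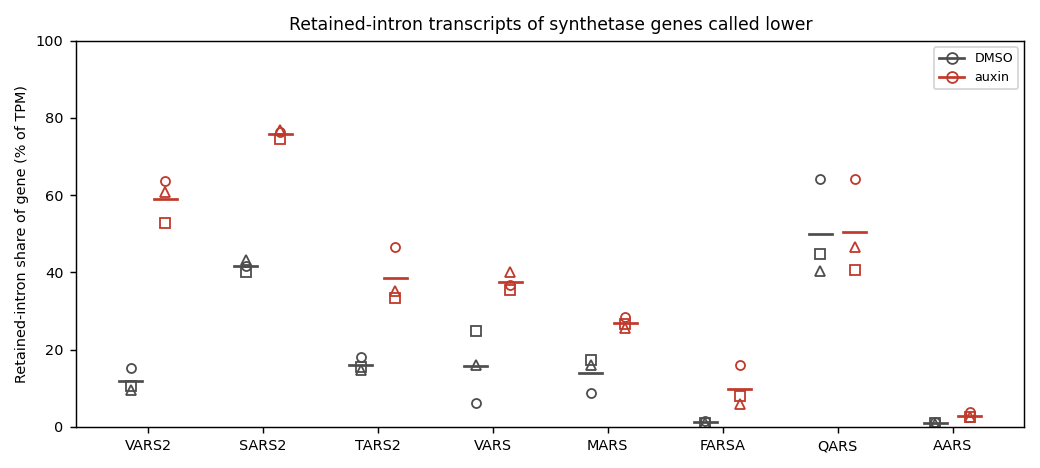
Share of each gene's TPM in transcripts annotated as retained introns, for 8 synthetase genes called lower (AARS2 has no such transcript). Grey symbols are DMSO libraries, red symbols auxin libraries (circle, square and triangle for replicates 1 to 3), and bars are means. The groups are apart in every gene shown except QARS, and the largest move is in VARS2, from 11.8% to 59.1%.

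Replicate 1 also stood apart in DARS. The retained-intron transcript DARS-209 made up 0.088% of the gene in replicate 1 of DMSO and 0.19% in replicate 1 of auxin. In the other libraries it made up 14.5% and 15.9% with DMSO and 20.8% and 18.8% after auxin. The large gap followed the replicate number, and for each replicate number the auxin library had the higher share. The relation of the gap to the greater depth of the replicate 1 libraries was not tested.

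The retained introns of VARS, SARS2 and VARS2 below come from the 5 genes whose retained-intron share rose by at least 10 points without overlap. In each, retained-intron transcripts of at least 5% of the gene after auxin were ordered by gain in share. The first that holds an intron whole was taken, and MARS and TARS2 had none. The genes and transcripts were thus chosen for a rise, so their gains in share below are not separate evidence of one. They are read from GENCODE transcripts on the strand of the gene (GRCh38), and capitals mark the first and last 2 bases, the splice site dinucleotides GT and AG. Each intron is flanked by coding exons. VARS intron 26 of 29 (chr6:31779815-31779997) has 183 bases with 63.9% G and C, and VARS-221, which holds it, went from 0.36% to 7.29% of the gene. SARS2 intron 3 of 15 (chr19:38921668-38922237) has 570 bases, and SARS2-210 went from 3.77% to 19.6%. VARS2 intron 24 of 28 (chr6:30923506-30924353) has 848 bases, and VARS2-206 went from 3.10% to 11.8%. Of the longer introns the first and last 40 bases are given.
VARS intron 26: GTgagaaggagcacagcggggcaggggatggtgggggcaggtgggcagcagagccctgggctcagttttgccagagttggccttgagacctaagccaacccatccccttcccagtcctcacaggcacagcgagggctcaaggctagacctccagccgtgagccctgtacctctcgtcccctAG
SARS2 intron 3, start: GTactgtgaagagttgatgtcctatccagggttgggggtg
SARS2 intron 3, end: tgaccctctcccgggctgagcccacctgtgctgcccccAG
VARS2 intron 24, start: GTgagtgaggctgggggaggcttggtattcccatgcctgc
VARS2 intron 24, end: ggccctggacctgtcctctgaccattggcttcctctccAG
All 3 introns carry the standard dinucleotides. Of the 3 transcripts, VARS-221 was called higher (log2 fold change 3.47 ± 0.82 SE, adjusted p by edgeR = 0.032), while SARS2-210 and VARS2-206 were not called, with log2 fold changes of -0.31 and 0.33.

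In FARSA and HARS2 the transcript that gained share lacks a coding exon. FARSA-202 made up 0.39%, 0.45% and 0.55% of FARSA in the DMSO libraries and 25.8%, 18.8% and 25.8% after auxin. It rose 3.58 ± 0.28 on the log2 scale (SE; adjusted p by edgeR = 7.7e-04) in a gene that fell as a whole, while FARSA-201 fell from 71.6% to 53.3% and FARSA-210 from 26.3% to 11.8%. HARS2-215 made up 18.4%, 19.2% and 22.5% of HARS2 with DMSO and 45.5%, 50.1% and 48.1% after auxin, with a log2 difference of 1.43 ± 0.19 (SE; adjusted p by edgeR = 0.0043). HARS2-213, which includes the exon, was at 39.8% ± 9.5 with DMSO and 23.6% ± 4.4 after auxin (SD, n = 3 each) and was not called (adjusted p by edgeR = 0.078). The HARS2 gene as a whole was not called, so the shift in its transcripts does not appear at the gene level.

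**Figure D4:**
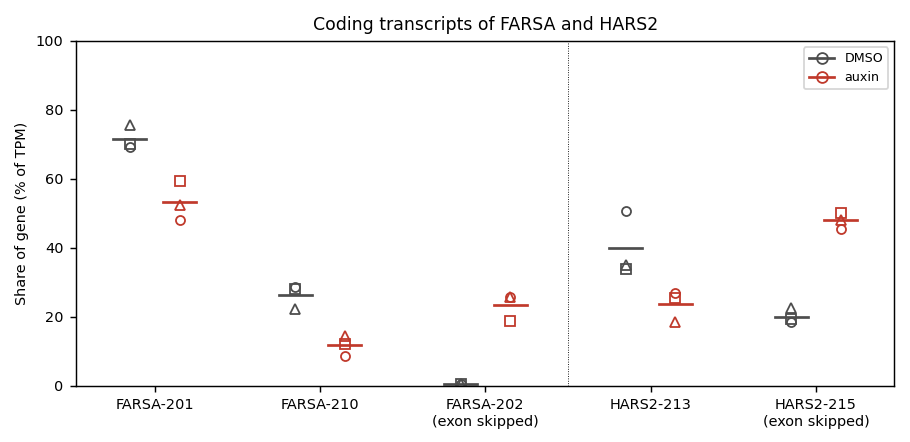
Share of the gene's TPM in the main coding transcripts of FARSA and HARS2. Grey symbols are DMSO libraries, red symbols auxin libraries (circle, square and triangle for replicates 1 to 3), and bars are means. The exon-skipping transcripts FARSA-202 and HARS2-215 are higher in every auxin library than in any DMSO library.

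Both skipped exons are whole multiples of 3 bases and wholly coding, so the messages without them keep the reading frame across the junction. FARSA exon 5 of 13 (chr19:12928755-12928847, minus strand) has 93 bases or 31 codons. HARS2 exon 7 of 13 (chr5:140696103-140696201, plus strand) has 99 bases or 33 codons. The sequences are given from the GENCODE transcripts FARSA-201 and HARS2-213 because these exons distinguish the forms that gained and lost share. The exon is in capitals, with 15 bases of the exons on either side in lower case.
FARSA exon 5: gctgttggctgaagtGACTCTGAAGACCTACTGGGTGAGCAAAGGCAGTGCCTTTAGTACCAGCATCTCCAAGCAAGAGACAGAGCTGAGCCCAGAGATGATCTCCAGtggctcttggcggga
HARS2 exon 7: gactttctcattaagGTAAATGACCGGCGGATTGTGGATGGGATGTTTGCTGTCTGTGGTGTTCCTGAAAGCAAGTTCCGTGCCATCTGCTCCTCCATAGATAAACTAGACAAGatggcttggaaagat
Transcript counts are estimates that divide shared reads among similar transcripts. The largest posterior SD in a library was 10.3% of the count for FARSA-202 after auxin and 2.96% for HARS2-215, against 32.6% for FARSA-202 in DMSO, where it had few reads.

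The genes that fell also had a gene structure in common. Mean intron length was taken from the member's most abundant coding transcript and could be given for 35 genes, MARS2 having no intron. The 9 genes called lower had mean introns of 272 to 1689 bases, and the 15 called higher with an intron had 1381 to 7431 bases. The 272 is that of VARS2-203, which has 10 exons and spans 3548 of the gene's 18218 bases. The next shortest was QARS, at 283 bases. When 13593 protein-coding genes with introns were divided into deciles by mean intron length, all 9 synthetase genes called lower fell in the 3 deciles with the shortest introns. Those deciles hold 14 synthetase genes, and the other 21 synthetase genes include none called lower. The 5 short-intron genes not called lower were HARS and TARS, HARS2, KARS and NARS. Across all genes the same deciles had 66.0%, 55.0% and 44.3% called lower, against 20.2% to 33.5% in the other 7 deciles, and the synthetases lay along the same order.

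Spearman's rho between mean intron length and log2 fold change was 0.50 over the 35 genes and 0.34 over the 13593 genes, as a description across genes that share the same 6 libraries. The content of G and C in the transcript gave a rho of -0.57 over the 35 genes and -0.37 over all. The 9 genes called lower ranged from 53.5% to 62.6% G and C, and the 15 called higher from 41.4% to 56.4%. Number of exons had a rho of -0.09, so genes with many exons were found on both sides: VARS-215 has 30 exons and fell, while LARS-202 has 32 and its gene rose.

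**Figure D5:**
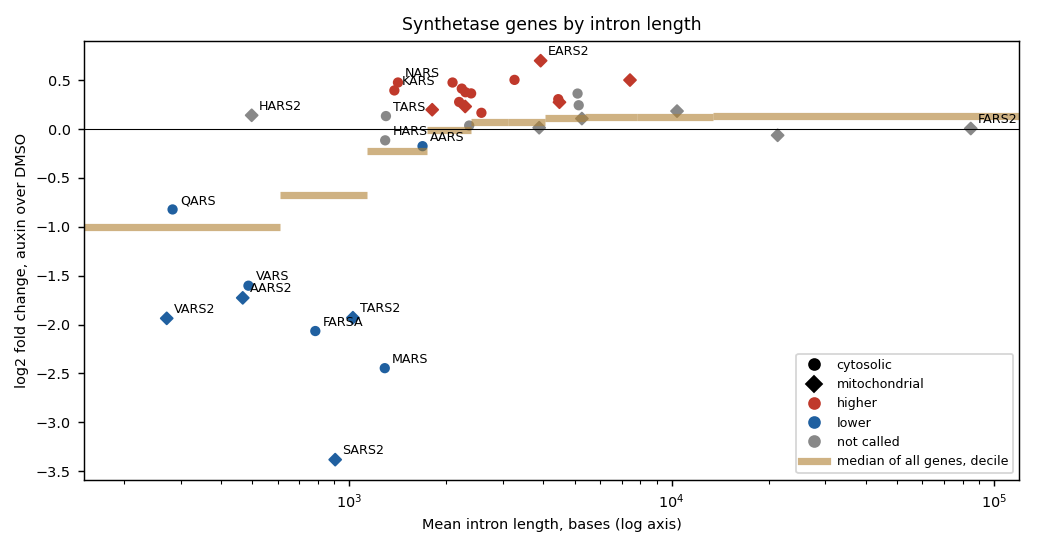
Log2 fold change after auxin of 35 synthetase genes against mean intron length on a log axis, circles for cytosolic and diamonds for mitochondrial genes, coloured by call. Brown bars give the median of all genes in each decile of intron length, drawn over that decile's range. The genes called lower lie at the short end, where KARS and NARS, called higher, lie as well.

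The promoter windows were searched for the core TGATGNAA of the amino acid response element, the sequence that ATF4 and its C/EBP partners bind. RefSeq windows from 250 bases before to 50 bases after a start site (GRCh38.p14) were matched for 30 of the 36 genes. On either strand the core was present in 8 of these, AARS, CARS, GARS, IARS, MARS, NARS, TARS and YARS2, and in 4.46% of the 27305 genes with a window. Of the 8, CARS, GARS, IARS, NARS and YARS2 rose, AARS and MARS fell, and TARS was not called. Genes with the same letters in the window therefore moved in both directions. The 250 bases before the IARS start (chr9:92293698-92293947, minus strand) are shown because the match, in capitals on the opposite strand, stands between 13 and 6 bases before the start of a gene that rose.
IARS: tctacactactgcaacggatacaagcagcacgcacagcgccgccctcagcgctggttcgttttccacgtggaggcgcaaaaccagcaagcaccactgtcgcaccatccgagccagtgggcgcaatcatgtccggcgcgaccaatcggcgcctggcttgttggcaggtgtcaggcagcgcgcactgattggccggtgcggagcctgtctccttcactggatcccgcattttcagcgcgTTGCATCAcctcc
IARS, the isoleucyl enzyme, was at 460.3, 481.7 and 509.7 CPM with DMSO and at 589.8, 637.5 and 641.9 CPM after auxin, with the groups apart (log2 fold change 0.36 ± 0.07 SE, adjusted p by edgeR = 0.0037).

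Genes that work beside the synthetases were read from lists by role, and their counts stand against the 25.4% of all genes called higher and the 26.9% called lower. Among 11 genes for charging accessories and proofreading 9 rose, 1 fell and 1 was not called, with a median log2 fold change of 0.72. PSTK, the kinase on the route to selenocysteyl-tRNA, rose by 1.71 ± 0.10, GATC, a subunit of the mitochondrial amidotransferase that makes glutaminyl-tRNA, by 1.14 ± 0.05, and TRNT1, which adds the CCA end to tRNA, by 1.10 ± 0.10 (log2 fold change ± SE). The fall was in AARSD1, which removes wrongly attached serine from alanine tRNA, at -1.67 ± 0.14. EARS2, whose product charges the tRNA on which the amidotransferase acts, rose, as did the 3 amidotransferase subunit genes GATC, GATB and QRSL1, the last 2 of which were chosen for mention after their values were seen.

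Of 11 mitochondrial translation factors 7 rose and 1 fell, where 25.4% of all genes were called higher and 26.9% lower. The fall was in TUFM, the elongation factor that carries charged tRNA to the mitochondrial ribosome, at -1.27 ± 0.06, while the initiation factors MTIF2 and MTIF3 rose by 0.88 ± 0.17 and 0.56 ± 0.07 and the elongation factor GFM1 by 0.71 ± 0.06 (log2 fold change ± SE). Of 7 cytosolic elongation genes 1 rose and 4 fell: EEF1A1 rose by 0.59 ± 0.12, and EEF2K, EEF1A2 and EEF2 had log2 fold changes of -1.31, -1.24 and -0.39. With the replicate block 3 of the 7 were called higher and 4 lower. The tRNA maturation genes were mixed, with 9 higher and 6 lower of 21, the latter near the share of all genes. POP5 and TSEN34 fell by 2.03 and 2.00 and ELAC2, which trims the 3′ end of tRNA, by 1.52 on the log2 scale, and RPP40, an RNase P subunit, rose by 1.05.

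Of 17 tested genes for ATF4 stress regulators and targets 9 rose and 4 fell, with a median log2 fold change of 0.22. Across all genes 25.4% were called higher and 26.9% lower. NUPR1 and CHAC1 rose by 1.33 ± 0.29 and 0.79 ± 0.18, NUPR1 from a low level (0.034 ± 0.007 CPM with DMSO, 0.086 ± 0.007 CPM with auxin; SD, n = 3 each), and SHMT2, the mitochondrial serine hydroxymethyltransferase, and the kinase EIF2AK3 had log2 fold changes of -2.08 ± 0.06 and -0.68 ± 0.08 (SE). ATF4 itself, chosen for mention after its value was seen, rose by 0.60 ± 0.05 (SE; adjusted p by edgeR = 9.6e-05). Of 11 amino acid transporters 4 rose and 5 fell, and with the replicate block 6 were called higher and 5 lower. SLC7A11, which imports cystine, and SLC7A5, which imports large neutral amino acids, rose by 1.11 ± 0.07 and 0.90 ± 0.10, and SLC6A9 and SLC43A1 had log2 fold changes of -2.37 ± 0.24 and -1.86 ± 0.23 (SE). Both lists held genes called in each direction, as did the synthetases, with 16 higher and 9 lower. The first list joins ATF4 targets with regulators such as the EIF2AK kinases. Of these EIF2AK1 and EIF2AK4 were called higher and EIF2AK2 and EIF2AK3 lower. Whether ATF4 acted on the synthetase genes was not tested.

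The family spanned a wide range of levels. In DMSO the highest mean was that of RARS, at 155.6 ± 29.5 TPM, followed by KARS, GARS, IARS and TARS between 141.1 and 146.9 TPM, neighbours that do not differ beyond their spread (SD, n = 3 each). The lowest was AARS2 at 2.07 ± 0.70 TPM, next to VARS2 and TARS2 at 3.18 and 3.22 TPM. Among the mitochondrial genes IARS2 was the highest, at 59.3 ± 8.1 TPM, above 10 of the cytosolic genes. After auxin the order changed for the genes that fell: MARS moved from rank 17 to 27 of 36, FARSA from 18 to 28 and SARS2 from 29 to 35. KARS, GARS and RARS held the first 3 ranks in both conditions, at 171.8 ± 9.2, 170.2 ± 10.3 and 168.1 ± 10.7 TPM after auxin (SD, n = 3 each), within their spread of one another.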

How the data were processed

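RNA-seq of 6 HCT116 libraries was analysed, 3 with auxin and 3 with DMSO. Per the labels' protocols, total RNA (RNA integrity number 10) was depleted of ribosomal RNA and made into stranded paired-end libraries. The submitters' processing notes name bcl2fastq 2.20, STAR, DESeq2 and the build GRCh38, without roles. The deposited tables give, per gene and per transcript, an expected count (an estimated read number, not normalized), a TPM (scaled per transcript length and library) and the authors' other estimates, of which the posterior SD of the count was used. The counter is not given in the sources used here. All 58780 gene and 206761 transcript IDs match GENCODE 29. A further 746 rows with no gene annotation, up to 0.00111% of the counts, were left out.

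Expected counts were rounded and tested with edgeR 4.0.16 in R 4.3.3 (filterByExpr, TMM factors, quasi-likelihood test, Benjamini-Hochberg adjustment over all features, call at 0.05). CPM is TMM-scaled, and SE is the log2 fold change over the root of F. Alternatives used DESeq2 1.42.0, limma 3.58.1 on log2(TPM + 1) or log2(TPM + 0.1), other scaling and filters, a replicate block, and each library left out. On simulated data, 74.5% of 200 genes changed 2-fold among 19725 were called and 8.02% of calls were unchanged genes, and 41% of 2000 transcripts changed 4-fold among 83072 were called. The rises called among the 36 genes were all under 2-fold, and far more genes were called in the data than were changed in the simulation. These rates therefore do not cover the small rises. Deviations of same-numbered libraries correlated at 0.861, 0.634 and 0.607 over 19725 genes. DMSO replicate 3 correlated equally with auxin replicate 2, at 0.607, and DMSO replicate 2 with auxin replicate 3 at 0.398. These values set replicate 1 apart but do not settle the pairing of replicates 2 and 3. The block treated the replicate numbers, taken from the labels, as pairs. With 3 against 3 libraries an exact permutation test cannot go below 0.1, so none was used.

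The genes and lists were chosen with earlier results of these data known. Full values are given for the 6 cytosolic and 6 mitochondrial genes with the largest absolute log2 fold change among those called, for KARS, GARS, EPRS, HARS and HARS2, for at most 4 called genes of each other list, and for at most 8 transcripts with a share of at least 10%, a call and a move of at least 10 points. Promoters are from RefSeq (GRCh38.p14).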

Additional observations from a re-analysis of the deposited data

How the results depend on the processing

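Scaling moved the median log2 fold change of all genes by 0.12 with upper-quartile factors, by -0.09 with library size only, by -0.06 on log2(TPM + 1) and by -0.12 on log2(TPM + 0.1), amounts close to the small rises reported. The 4 mitochondrial genes called lower were also 4 in number under every alternative. On log2(TPM + 1) and log2(TPM + 0.1) limma called 0 cytosolic and 0 mitochondrial genes higher and 3 cytosolic genes lower; the cause was not tested. Leaving out each library in turn gave 5 to 12 cytosolic genes higher and 4 to 5 lower, 3 to 6 mitochondrial genes higher and 4 lower, and 7 to 22 transcripts higher and 16 to 24 lower. The counts of cytosolic rises were 5 without auxin replicate 2 or 3 and 6 without DMSO replicate 1 or 2, and those of mitochondrial rises were 3 without auxin replicate 2, auxin replicate 3 or DMSO replicate 2. Transcripts called higher numbered 50 with DESeq2, 43 with upper-quartile factors and 49 with the replicate block, against 25. They numbered 7, 11, 16, 11 and 13 without auxin replicates 2 and 3 and DMSO replicates 1, 2 and 3. With the replicate block 13 cytosolic genes were higher and 6 lower, and 8 mitochondrial genes higher and 4 lower; beyond the 6 genes and the scaffold gene EEF1E1 given with their blocked values, the block changed no call of the 36 genes.

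Signs of values near 0 changed with the setting in genes that were not called and in YARS2. The log2 fold change of EPRS was -0.053 with library size only, -0.107 and -0.108 on the TPM scales with pseudocounts of 1 and 0.1, and from -0.097 to 0.183 with a library left out. That of FARS2 was -0.084 with library size only, -0.018 with no filter, -0.121 and -0.135 on the TPM scales, and from -0.033 to 0.050 with a library left out. That of RARS2 was -0.074 with library size only, -0.0098 with no filter, -0.119 and -0.123 on the TPM scales, -0.0080 with replicates 2 and 3 alone, and from -0.017 to 0.042 with a library left out. Upper-quartile factors gave 0.0066 for HARS and 0.059 for WARS2. The TPM scales gave -0.0467 and -0.0470 for TARS, -0.0397 and -0.0468 for PARS2 and -0.0125 and -0.0127 for YARS2. Depth limits SARS2, TARS2, VARS2 and AARS2 most, with 157 to 383 reads in their lowest libraries.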
